A study of Mus with 15 samples.

Results

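The clustered protocadherins are neuronal cell-surface adhesion proteins encoded side by side on mouse chromosome 18 in an alpha, a beta and a gamma cluster. All 57 protein-coding genes on chromosome 18 whose symbol begins with Pcdha, Pcdhb or Pcdhg were taken as members, out of 21887 protein-coding genes on chromosomes 1 to 19, X and Y. The alpha cluster held 14 of them, the beta cluster 22 and the gamma cluster 21. By their symbols, 5 were C-type genes (Pcdhac1, Pcdhac2, Pcdhgc3, Pcdhgc4 and Pcdhgc5) and 52 were the other members, called alternate genes here, from Pcdha1, Pcdhb1 and Pcdhga1, the first of each cluster, onwards.

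Monoubiquitinated H2A (H2AK119ub, written H2Aub here), the product of the ubiquitin ligases of Polycomb repressive complex 1 and a mark of many silenced genes, was profiled in dissected thalami of mice aged 2 to 4 months by ChIPmentation, a chromatin immunoprecipitation in which Tn5 transposase inserts the sequencing adapters on the beads. Maged1 WT mice carried the loxP allele of Maged1 and are the controls, and Maged1 cKO mice also carried Cre recombinase under the vGluT2 promoter, so that deletion was limited to cells that have used this promoter and a dissected thalamus also holds other cells. Both genotypes received saline for 3 days and then 5 days of intraperitoneal cocaine at 20 mg/kg or of saline, and each sample pooled several thalami. WT mice gave 3 libraries after cocaine and 3 after saline, cKO mice gave 2 after cocaine and 3 after saline, and each library had its own list of broad peaks. Peak lists of a histone mark hold no transcript levels, so neither the tissue nor the loss of Maged1 could be checked from them.

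In the alpha and gamma clusters each gene contributes its own large variable exon, with its own promoter, which is spliced to constant exons shared by the whole cluster, whereas the beta genes have no shared constant exons. Alternate genes are known to be chosen stochastically in single neurons, with CTCF, cohesin and DNA methylation taking part in the choice, so that neighbouring neurons carry different sets of surface proteins. The C-type genes are known to be expressed more uniformly across neurons of a given kind and to be regulated differently from the alternate genes. Comparing H2Aub over the locus asks whether the mark lies at these genes, where within them, and whether it differs with cocaine or with Maged1.

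Each cluster was treated as an interval from its first to its last member plus 5 kb on either side (mm10). The alpha interval was chr18:36925285-37193897 (268.61 kb), the beta interval chr18:37259998-37526419 (266.42 kb) and the gamma interval chr18:37656775-37846873 (190.1 kb). The gene table used here gives gene starts and ends but no exons, so the variable exon was represented by a window from 500 bp before to 2500 bp after the gene start. The constant part was taken from 2500 bp after the last gene start to the shared end of the cluster. It spanned 42.72 kb in the alpha cluster and 19.828 kb in the gamma cluster. The protein-coding genes Gm37013, Gm38666 and Gm38667, which begin within 41, 6 and 9 bp of Pcdha4, Pcdha6 and Pcdha7 and run to the shared end of the gamma cluster, and the transcribed pseudogene Pcdhgb8 were not members.

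The lists held 7271 to 80713 peaks per library, and no read counts, so the exact depth behind each is not known here. The cKO cocaine and cKO saline replicates numbered 1 had the longest lists, with 54653 and 80713 peaks against at most 26055 in the other 9 libraries. The series describes the replicates of a group as independent pools of thalami, and the p-values below measure the spread between these pools.

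Within the 3 clusters, most H2Aub peaks touched the variable-exon windows of the C-type genes and began after the gene start. The 11 lists together held 43 peaks in the clusters, 10 in the alpha, 3 in the beta and 30 in the gamma interval. Of these, 31 touched a variable-exon window, and all 31 were at a C-type gene. A further 2 peaks lay in a constant part and 10 elsewhere. In the cKO replicates numbered 1, 8 of 19 peaks touched C-type windows, whereas in the remaining 9 libraries the count was 23 of 24.

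**Figure D1:**
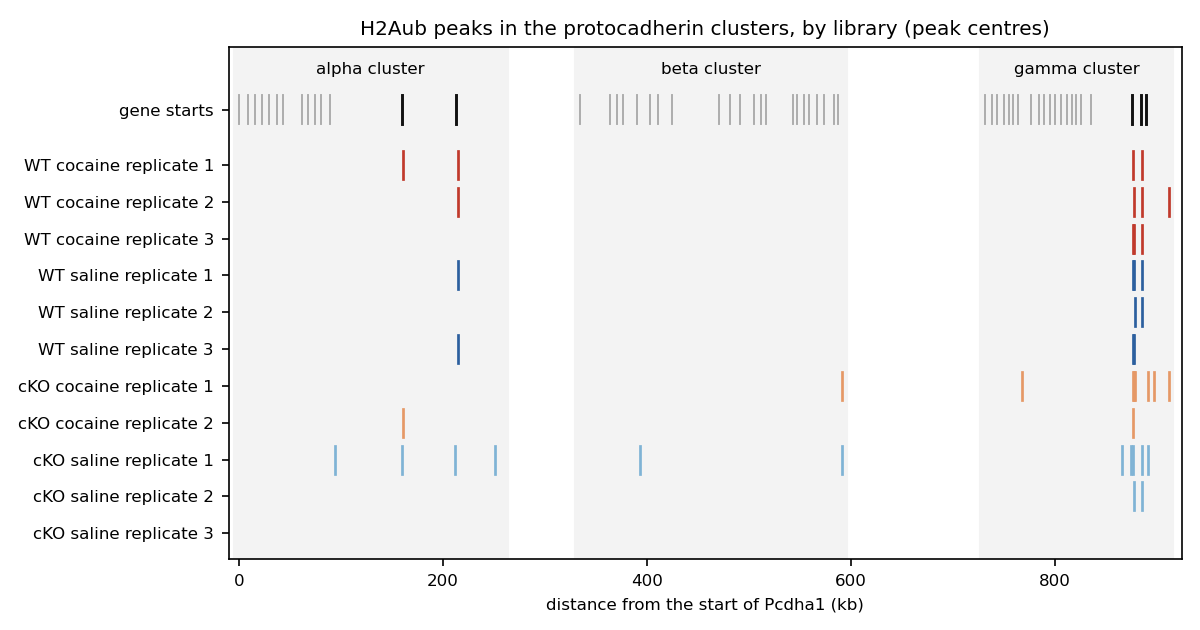
H2Aub peaks across the protocadherin locus. The x axis is the distance from the start of Pcdha1 in kb, each row is a library coloured by group, coloured ticks are peak centres, shaded areas are the cluster intervals, and the top row marks gene starts (grey for the 52 alternate genes, black for the 5 C-type genes); peaks line up under the black ticks, most of all at the right end of the gamma cluster, and the cKO replicates numbered 1 hold most of the others.

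All 5 C-type genes had a peak in at least 1 library, in 26 of 55 gene and library pairs. None of the 52 alternate genes had one in its variable-exon window, in 0 of 572 pairs. This split is a description of counts, given with no test. Over all members, 5 of the 57 member start windows (8.77%) held a peak in any library, against 28.8% of 43774 windows of the same size laid at both ends of all protein-coding genes. A peak in at least 6 of the 11 libraries was found at 2 members (3.51%) and in 7.37% of those windows.

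**Figure D2:**
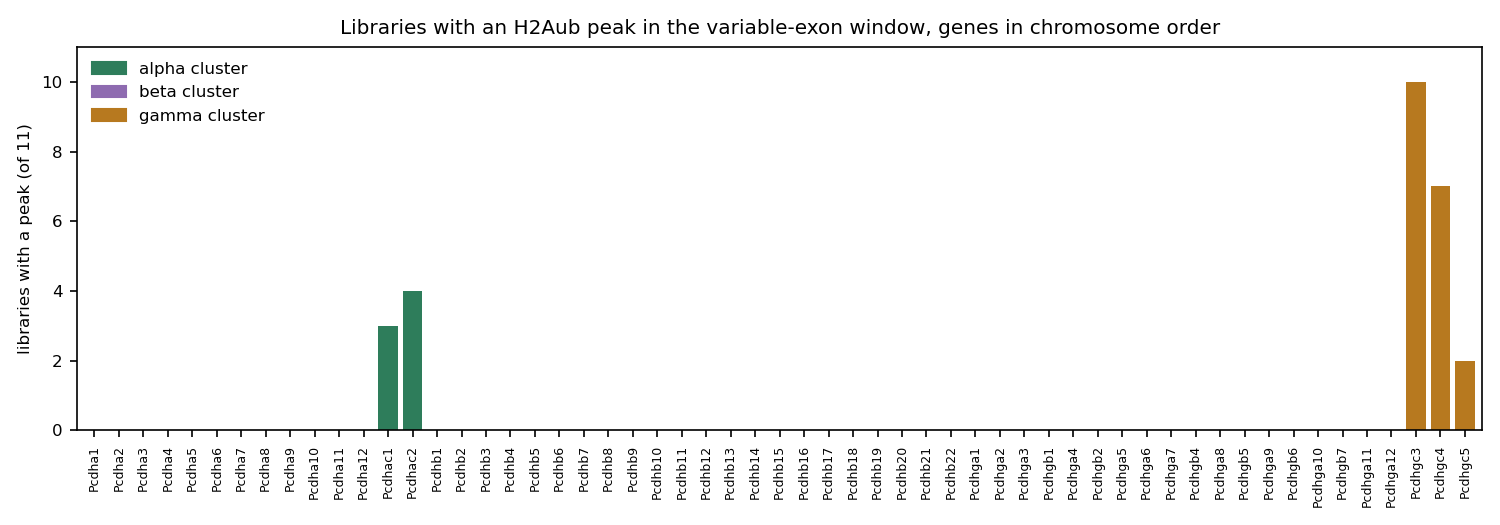
Number of libraries, out of 11, with an H2Aub peak in the variable-exon window of each of the 57 genes, in chromosome order and coloured by cluster. Only the C-type genes have bars, from 2 libraries for Pcdhgc5 to 10 for Pcdhgc3.

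Pcdhgc3 (gene ID 93706, chr18:37806410-37841873), the first C-type gene of the gamma cluster, carried a peak in 10 of 11 libraries. The length under peaks in its window was 1098, 349 and 761 bp in the WT cocaine libraries and 611, 280 and 856 bp in the WT saline libraries. It was 794 and 997 bp in the cKO cocaine libraries and 659, 942 and 0 bp in the cKO saline libraries. The 4 groups overlapped, and only cKO saline replicate 3, the shortest list, had none. A peak in at least 10 libraries at either gene end was found for Pcdhgc3 alone among the members, and for 5.83% of all protein-coding genes.

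Peaks at Pcdhgc3 did not sit at 1 fixed place. Its 15 peaks lay between 229 and 2517 bp after the gene start, and together they touched 75.7% of the window. The most libraries that shared a base was 5, in 3 stretches at 395 to 524, 794 to 874 and 1568 to 1572 bp after the start (chr18:37806805-37806933, chr18:37807204-37807283 and chr18:37807978-37807981).

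Pcdhgc4 (gene ID 93707), a gamma C-type gene required for the survival of many neurons, carried a peak in 7 of 11 libraries. Its window held 588, 575 and 265 bp under peaks in the WT cocaine libraries and 455, 367 and 0 bp in the WT saline libraries. It held 0 bp in both cKO cocaine libraries, and 200, 234 and 0 bp in the cKO saline libraries. WT cocaine therefore lay above both cKO groups with no overlap, whereas the other 4 of the 6 pairs of groups overlapped. A peak in every WT cocaine and no cKO cocaine library was found at either end of 0.274% of all protein-coding genes. The share of genes that separate WT cocaine from cKO saline without overlap is not given here. The 7 peaks of Pcdhgc4 lay 291 to 1523 bp after the start, and 6 libraries shared 25 bp at 721 to 746 bp (chr18:37815800-37815824).

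Pcdhac2 (gene ID 353237, chr18:37143678-37187663), the last gene of the alpha cluster, known for its expression in serotonergic neurons, carried a peak in 4 of 11 libraries, all WT. Its window held 406, 138 and 0 bp in the WT cocaine libraries, 128, 0 and 412 bp in the WT saline libraries and 0 bp in all 5 cKO libraries. Each WT group had a library at 0, so neither was separate from the cKO groups. All 4 peaks lay 1222 to 1846 bp after the start.

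Pcdhac1 (gene ID 353236, chr18:37090136-37187657), the other alpha C-type gene, carried a peak in 3 of 11 libraries, with 262 bp in WT cocaine replicate 1, 359 bp in cKO cocaine replicate 2 and 185 bp in cKO saline replicate 1. Pcdhgc5 (gene ID 93708), the last gene of the gamma cluster, carried a peak in 2 of 11 libraries, with 227 bp in cKO cocaine replicate 1 and 149 bp in cKO saline replicate 1. These are the replicates with the longest lists, and without them Pcdhgc5 had no peak.

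**Figure D3:**
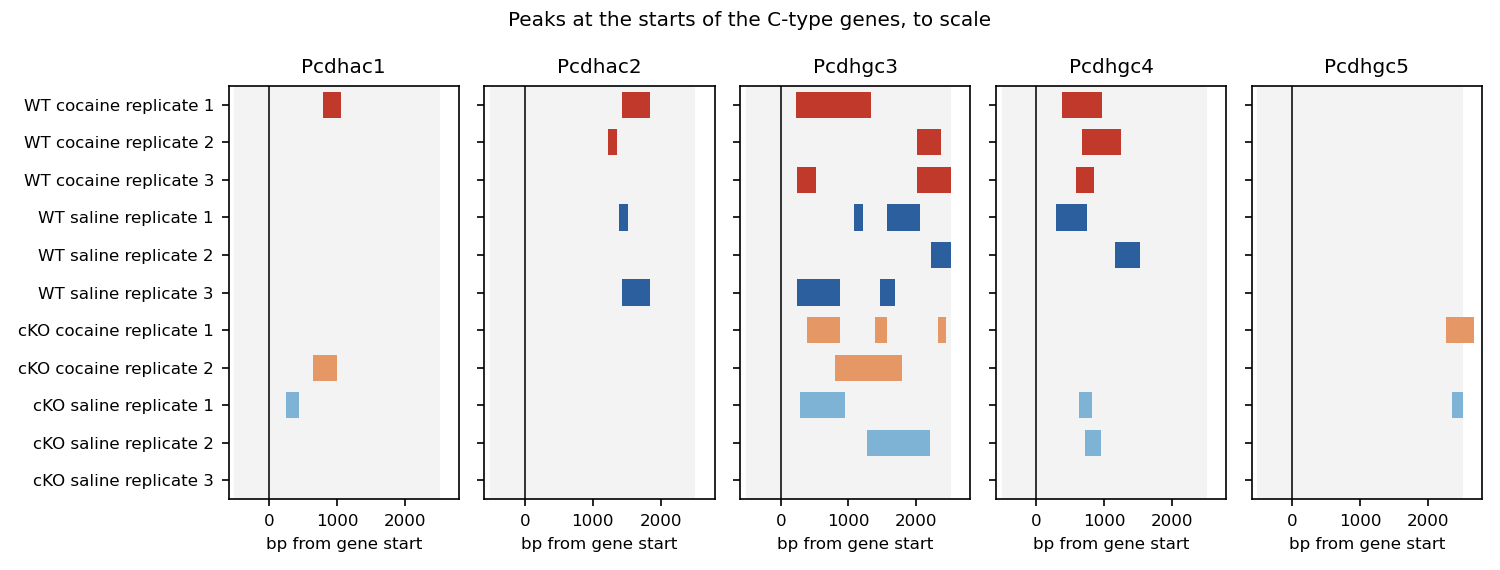
Peaks at the starts of the 5 C-type genes, drawn to scale. The x axis is the distance from the gene start in bp (black line), shading marks the variable-exon window, and each row is a library coloured by group; every peak begins after the gene start, and those of Pcdhgc3 are spread over most of the window.

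The peaks at the C-type genes had low fold enrichments, as did the lists they came from. Their fold enrichment over total input was 2.93 to 4.13, with a median of 3.40, where the medians of the 11 lists were 3.10 to 4.02. It was above the median of the peak's own list for 10 of 19 peaks in WT libraries and 1 of 12 in cKO libraries, a description with no test. Of the 12 cKO peaks, 8 came from the replicates numbered 1, which had the longest lists, and peaks are not replicates of a genotype. Their q value, the false discovery rate given to each peak, was 0.00304 to 0.0916, with a median of 0.0331. Of the 31 peaks, 24 had a q of at most 0.05 and 3 a q of at most 0.01. Their median width was 359 bp, the widest measured 1098 bp, and 18 of 31 were wider than the median of their list. None began before the gene start.

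The alternate genes were described by their clusters. None of the 22 beta genes held a peak between its start and its end. The 12 alpha and 18 gamma alternate genes reach across the C-type genes to the shared end of their cluster, so their spans take in the C-type peaks and some of the peaks outside the windows described next. Counted at either gene end, 25 of 57 members (43.9%) had a peak in at least 1 library, against 42.2% of all protein-coding genes. Of these 25, the 18 gamma alternate genes counted only through their shared end, which a single peak of WT cocaine replicate 2 touched, and Pcdhb5 and Pcdhb22 only through peaks beyond their far end. Without WT cocaine replicate 2, 7 members (12.3%) and 41.4% of all protein-coding genes counted. The alternate variable exons resemble each other in sequence, and the authors kept only reads with a high mapping quality. How much of these windows such reads can cover was not tested.

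Outside the windows, 11 of the 12 peaks belonged to the cKO replicates numbered 1. The exception was a peak of WT cocaine replicate 2 at chr18:37842350-37842596, 476 bp beyond the end of the gamma genes, with a q of 0.0505. The smallest q at the locus was 1.29e-09, with a fold enrichment of 7.25, for a peak of cKO cocaine replicate 1 at chr18:37698686-37698935, 4.31 kb after the start of Pcdhga5. Both of those replicates had a peak 402 to 419 bp beyond the end of Pcdhb22 (chr18:37521839-37521996 and chr18:37521822-37522008). The remaining peaks of cKO saline replicate 1 lay at chr18:37024837-37024998, chr18:37142466-37142636, chr18:37324026-37324202, chr18:37796460-37796587 and chr18:37804999-37805134, the last before the start of Pcdhgc3 with a fold enrichment of 5.51, and that of cKO cocaine replicate 1 lay beyond the gamma genes at chr18:37842679-37842815. Each of these replicates also had 1 peak in a constant part, that of cKO cocaine replicate 1 in the gamma cluster (chr18:37827325-37827798, within the long noncoding RNA gene Gm29994) and that of cKO saline replicate 1 in the alpha cluster (chr18:37181294-37181420).

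Compared within each library, the alpha and beta clusters were less covered by H2Aub peaks than the rest of the genome. Peaks covered 0.0795% of the alpha interval and 0.0178% of the beta interval on average, against 0.466% of the rest of chromosomes 1 to 19, X and Y. Both differences held in 11 of 11 libraries (-0.386 ± 0.219 and -0.448 ± 0.224 percentage points, SD, n = 11, exact sign-flip permutation test, two-sided, p = 9.77e-04 each, the smallest the test can give, adjusted p = 0.00430 over 11 comparisons). All beta coverage came from the cKO replicates numbered 1, so in the other 9 libraries beta was at 0 and could only lie below. The test sets a fixed interval against the genome average and makes no comparison with other intervals of its size. Of all protein-coding genes, 57.8% had no peak at either end in any library.

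The gamma cluster, at 0.575%, was above both other clusters in 10 of 11 libraries, with cKO saline replicate 3 at 0 in all (differences of 0.495 ± 0.267 points from alpha and 0.557 ± 0.265 from beta, SD, n = 11, same exact test, p = 0.00195, adjusted p = 0.00430). Against the rest of the genome it was higher in 9 libraries and lower in 2 (0.109 ± 0.196 points, SD, n = 11, exact p = 0.101, adjusted p = 0.111). Without the cKO replicates numbered 1 this difference was 0.136 points (exact p = 0.0273), and without cKO saline replicate 1 alone it was 0.153 points (exact p = 0.0137). With the 7271 peaks of smallest p in each library it was 0.0119 points (exact p = 0.848), and with peaks of q at most 0.05 it was 0.0662 points (exact p = 0.319). With peaks of q at most 0.01 the gamma cluster exceeded the alpha cluster by 0.0181 points (exact p = 0.563) and the beta cluster by 0.0178 points (exact p = 0.5), and it fell below the rest of the genome (-0.222 points, exact p = 9.77e-04). The alpha and beta clusters differed by 0.0617 points (exact p = 0.0625, adjusted p = 0.0764).

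**Figure D4:**
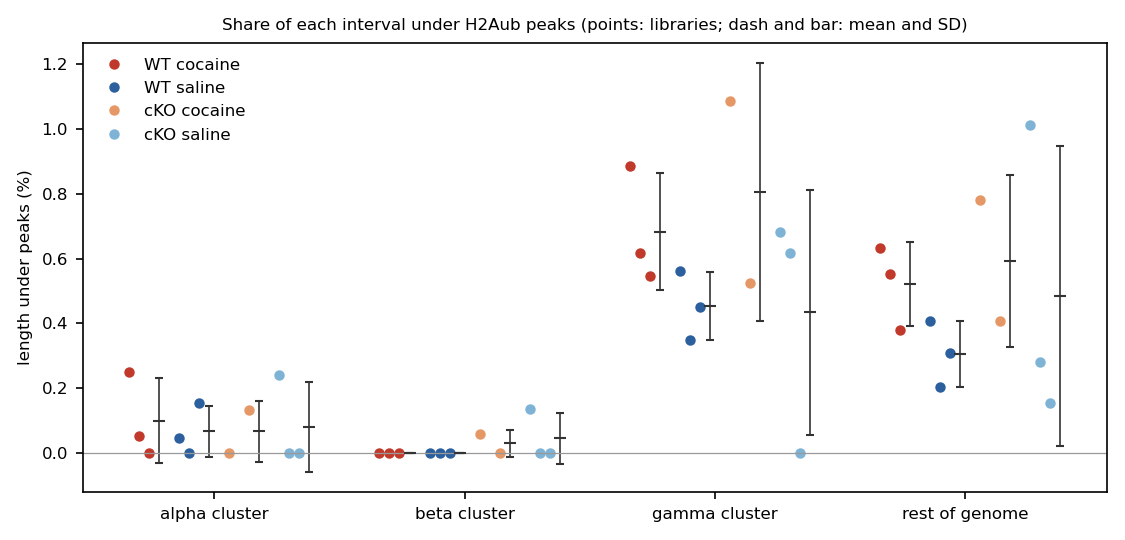
Percent of each cluster interval and of the rest of the genome under H2Aub peaks. Points are the 11 libraries coloured by group, and dashes with bars are group means with SD (n = 3, or 2 for cKO cocaine); the beta cluster is at 0 in 9 libraries, the gamma cluster lies between 0 and 1.09%, and the rest of the genome between 0.156 and 1.01%.

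Within the gamma cluster, peaks covered 1.50% of the variable-exon windows and 0.115% of the remaining interval. The windows of the 18 gamma alternate genes held no peak, so this window coverage lay at the C-type genes alone. Without the cKO replicates numbered 1 the remainder was at 0.0242%. The windows were higher in 10 of 11 libraries (1.39 ± 0.671 points, SD, n = 11, exact p = 0.00195, adjusted p = 0.00430). The constant part, at 0.314%, was lower than the windows in 9 libraries and higher in 1 (-1.19 ± 1.15 points, SD, n = 11, exact p = 0.0176, adjusted p = 0.0322). Of the length under peaks in the constant part, 659 bp came from cKO cocaine replicate 1 and 26 bp from cKO saline replicate 1, and the other 9 libraries had none. The 26 bp and part of the 659 bp were the far ends of Pcdhgc5 window peaks, which reached to 2526 and 2685 bp after its start. The rest was a peak of 474 bp in cKO cocaine replicate 1. Without the cKO replicates numbered 1 the difference was -1.48 points (exact p = 0.00781). With a window ending 1000 bp after the start the difference was -1.02 points and no longer passed 0.05 (exact p = 0.0742). With peaks of q at most 0.01 the gamma windows and the remainder were at a difference of -0.00537 points (exact p = 1).

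Within the alpha cluster, peaks covered 0.409% of the windows and 0.0185% of the remainder (0.391 ± 0.529 points, SD, n = 11, higher in 6 libraries and equal at 0 in 5, exact p = 0.0313, adjusted p = 0.0430). Here too the windows of the 12 alpha alternate genes held no peak, and the window coverage lay at the C-type genes. The constant part, at 0.0270%, differed from the windows by -0.382 points in the same test (exact p = 0.0313, adjusted p = 0.0430). Coverage of both the alpha remainder (460 bp) and the alpha constant part (127 bp) came from cKO saline replicate 1 alone, and without it both were at 0. Only 6 libraries had an alpha window peak, and leaving out any of them (WT cocaine replicates 1 and 2, WT saline replicates 1 and 3, cKO cocaine replicate 2 or cKO saline replicate 1) raised p to 0.0625. With peaks of q at most 0.05 the alpha windows exceeded the remainder by 0.286 points (exact p = 0.125). The beta windows held no peak, and their remainder 0.0237% (exact p = 0.5).

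No difference between groups over the clusters passed the exact test, which could not reach 0.05 with these numbers of libraries. The gamma cluster was covered to 0.683% ± 0.180 in WT cocaine (SD, n = 3) and 0.453% ± 0.106 in WT saline (SD, n = 3), a difference of 0.230 points (exact permutation test, two-sided, p = 0.2). In cKO mice it was covered to 0.806% ± 0.398 after cocaine (SD, n = 2) and to 0.434% ± 0.377 after saline (SD, n = 3), a difference of 0.372 points (exact p = 0.6). This difference was 0.0907 without cKO cocaine replicate 1, 0.155 without cKO saline replicate 3 and 0.654 without cKO cocaine replicate 2, and that between the WT groups was 0.128 without WT cocaine replicate 1. Coverage of the rest of the genome in WT mice was 0.522% ± 0.129 after cocaine and 0.307% ± 0.102 after saline (SD, n = 3 each). As a percentage of all length under peaks, the gamma difference between WT groups turned to -0.00138 points. It was also negative with peaks of q at most 0.05 (-0.00351 points) and with 7271 peaks from each library (-0.0470 points).

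Of the 12 comparisons over 3 clusters and 4 pairs of groups, each had an adjusted p of 1 in the exact test and overlapping ranges, although 3 against 3 or 2 against 3 libraries cannot go below p = 0.10. The cocaine effect did not differ detectably between genotypes. Its difference, cKO minus WT, was -0.0462 points in the alpha, -0.0159 in the beta and 0.142 in the gamma cluster (exact permutation of treatment within genotype, two-sided, p = 0.715, 1 and 0.775, adjusted p = 1 each). None of these signs was stable. The alpha value was 0.0345 with 7271 peaks from each library and 0.101 without both cKO replicates numbered 1, the beta value 0.0297 without cKO saline replicate 1, and the gamma value -0.0146 without both of those replicates and -0.139 without cKO cocaine replicate 1.

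The 5 C-type genes were also compared one by one, in 20 tests added after their values had been seen. None passed the exact permutation test (adjusted p = 1 throughout). Pcdhgc4 gave the largest difference, -476 bp in cKO cocaine against WT cocaine (0 against 476 ± 183 bp, SD, n = 2 and 3, exact p = 0.2). It was -280.0 bp with peaks of q at most 0.05, and 0 bp with peaks of q at most 0.01 or with 7271 peaks from each library. In WT mice, cocaine minus saline was 202 bp at Pcdhgc4 (exact p = 0.3) and 154 bp at Pcdhgc3 (exact p = 0.7), and neither direction was stable. At Pcdhgc3 it was -7.0 bp with peaks of q at most 0.05, -74.0 bp with q at most 0.01, -27.3 bp without WT cocaine replicate 1 and 2.5 bp without WT saline replicate 2. At Pcdhgc4 it was 6.0 bp with q at most 0.05, -122 bp with 7271 peaks from each library and 65.0 bp without WT saline replicate 3. Between cKO cocaine and cKO saline, Pcdhgc3 differed by 362 bp (exact p = 0.4), and by 95.0 bp without cKO saline replicate 3, which had none. Among the 4 pairs of groups tested, Pcdhgc4 between the cocaine groups was the one case without overlap. Peaks in every WT cocaine and no cKO cocaine library were found at either end of 0.274% of all protein-coding genes.

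**Figure D5:**
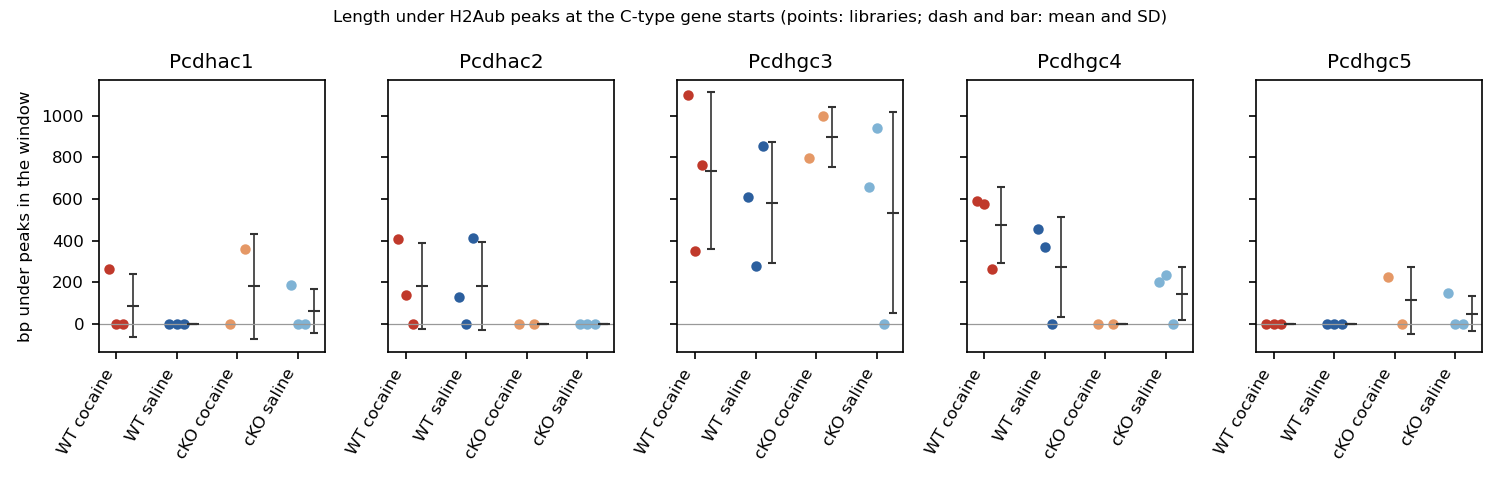
Length under H2Aub peaks in the window of each C-type gene, in bp. Points are libraries, grouped and coloured by genotype and treatment, and dashes with bars are group means with SD (n = 3, or 2 for cKO cocaine); Pcdhgc4 is at 0 in both cKO cocaine libraries and between 265 and 588 bp in the WT cocaine libraries.

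H2Aub+ elements, merged peaks present in at least 2 replicates of a group, were found at few members. WT cocaine had them at Pcdhgc3 and Pcdhgc4, WT saline at Pcdhac2 and Pcdhgc3, cKO cocaine at Pcdhgc3 and cKO saline at Pcdhgc4. The member shares were 3.51, 3.51, 1.75 and 1.75%, against 13.1, 9.33, 9.25 and 8.09% of all protein-coding genes in the same order. The element at Pcdhgc4 in WT cocaine spanned chr18:37815460-37816332, and that in cKO saline chr18:37815703-37816033. The Pcdhgc4 element of cKO saline rested on replicates 1 and 2 and was lost without either. WT saline kept 0 members with an element without replicate 1 or replicate 3, and WT cocaine 1 without replicate 3. With peaks of q at most 0.01 all 4 groups had 0 such members, with 7271 peaks from each library each WT group had 1 and each cKO group 0, and cKO saline had 0 already at q at most 0.05. The shares of all protein-coding genes under these alternatives are not given here, so the changed counts are not read as results about the members.

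Over the 4 pairs of groups compared, Pcdhgc4 was the only member with a peak in every library of a group and in none of the other, namely in WT cocaine against cKO cocaine, as were 0.274% of all protein-coding genes. The converse, every cKO cocaine and no WT cocaine library, held for 0 members and 0.608% of genes. Between treatments, 0 members separated WT cocaine from WT saline in that direction or the other (0.621 and 0.032% of genes), or cKO cocaine from cKO saline (0.448 and 0.00914%). Between genotypes under saline, 0 members had peaks in every cKO and no WT library or the converse (0.064 and 0.0548%). With peaks of q at most 0.05 the count of 1 for Pcdhgc4 became 0, and the share of all protein-coding genes at that limit is not given here.

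Protocadherins outside the clusters, which lack the shared exons, were counted at either gene end. Of 12, 9 (75.0%) had a peak in at least 1 library and 1 in at least 6, against 42.2 and 12.6% of all protein-coding genes. Pcdh8, an activity-regulated protocadherin, had peaks in 11 of 11 libraries. Pcdh1, Pcdh10 and Pcdh17 had peaks in 5 each, Pcdh17 in 3 of 3 WT cocaine and 0 of 3 WT saline libraries, as for 0.621% of all protein-coding genes. Among known regulators of the clusters, 3 of 11 (27.3%, against the same 42.2%) had a peak: the DNA methyltransferase gene Dnmt3b in 8 libraries, Wiz, which encodes a zinc finger protein, in 7, and Nipbl, which encodes the cohesin loader, in 1. The other 8, with Ctcf among them, had none.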

How the data were processed

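Adapters were trimmed by the authors (Cutadapt, version 3), who aligned read pairs to mm10 with Bowtie2 (version 2.3.4.1), kept alignments of high mapping quality and called broad peaks per library with MACS2 (version 2.1.1.20160309.3) against total input. The deposited lists give for each peak a score, the −log10 q, the −log10 p and a fold enrichment, which is a linear ratio to input. The 4 input libraries were not analysed here. The highest q was 0.0997, and all peaks were used, except 10 on unplaced contigs.

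Peaks were joined by position to a GRCm38.p6 gene table (the coordinates of mm10), which has no exons and no strand. For all genes, windows were therefore laid at both gene ends. Covered length per library was computed with numpy 2.4.6 in Python 3.11.15. Interval and test code was tested on simulated data. Groups were compared by exact permutation over libraries and parts of the locus by exact sign flips within libraries, two-sided, with Benjamini-Hochberg adjustment over 12, 3 and 11 tests. The 20 tests of single C-type genes were added after values were seen and adjusted over all 20. The alternatives were q at most 0.05 or 0.01, 7271 peaks from each library, coverage as a percentage of the list, other windows and margins, left-out libraries and a replicate block.

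Members and lists were chosen with earlier results of these data known. Named were the first gene of each cluster, the C-type genes, up to 5 genes per cluster with peaks in the most libraries, genes separating the treatments, and at most 4 per list outside the clusters. Single peaks outside the windows, with the genes nearest to them, were picked after their values were seen. The symbol Znf143 was not in the table and Zfp143 was.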

Additional observations from a re-analysis of the deposited data

How the results depend on the processing

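Without read counts, a longer list cannot be told apart from more H2Aub, a missing peak is a missed threshold and not an absence, and 3 against 3 libraries cannot pass 0.05. Causes of the changes below were not tested. No comparison of 2 groups could pass 0.05, and the cocaine effect between genotypes, which could, did not under any alternative. Only signs and sizes of the differences (percentage points of covered length) are therefore compared. Over the alternatives, 29 values of the group comparisons reversed their sign and 118 did not. For alpha, cKO saline minus WT saline was -0.0513 at q at most 0.05, -0.000124 at q at most 0.01, -0.0670 with equal numbers (7271 peaks per library), -0.00124 as a percentage of the list and -0.0670 without both cKO replicates numbered 1. Alpha WT cocaine minus WT saline was -0.0345 with equal numbers and -0.000419 as a percentage of the list. Gamma WT cocaine minus WT saline was -0.00351, -0.0389, -0.0470 and -0.00138 under the first 4 of these settings. As a percentage of the list and without both cKO replicates numbered 1, alpha cKO cocaine minus cKO saline was 0.000844 and 0.134, and alpha cKO cocaine minus WT cocaine 2.61e-05 and 0.0336. Without both replicates, gamma cKO cocaine minus WT cocaine was -0.159. The cocaine effect, cKO minus WT, was 0.0345 (equal numbers), 0.00126 (percentage of the list) and 0.101 (without both) in alpha and -0.0146 (without both) in gamma. Leaving out single libraries gave ranges of 0.128 to 0.298 (gamma WT cocaine minus WT saline), 0.0907 to 0.654 (gamma cKO cocaine minus cKO saline), -0.0413 to 0.0830 (alpha WT cocaine minus WT saline), -0.0800 to 0.0668 (alpha cKO cocaine minus cKO saline), -0.0670 to 0.0562 (alpha cKO saline minus WT saline), -0.100 to 0.0411 (alpha cKO cocaine minus WT cocaine), -0.0455 to 0.0297 (beta cKO cocaine minus cKO saline), -0.144 to 0.197 (gamma cKO saline minus WT saline), -0.159 to 0.404 (gamma cKO cocaine minus WT cocaine), and, for the cocaine effect, -0.113 to 0.0338 in alpha, -0.0455 to 0.0297 in beta and -0.139 to 0.424 in gamma.

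Within libraries, at q at most 0.01 gamma minus the rest of the genome was -0.222 and alpha minus beta -0.000315, gamma minus alpha 0.0181, gamma minus beta 0.0178, gamma windows minus remainder -0.00537 and gamma constant part minus windows -0.0320. Alpha windows minus remainder was 0.286 (q at most 0.05), 0.0793 (q at most 0.01), 0.174 (equal numbers), 0.262 (window to 1000 bp) and 0.451 (without both cKO replicates numbered 1), and 0.271 to 0.430 leaving out single libraries. Alpha constant part minus windows was -0.264, -0.0574, -0.174, -0.0718 and -0.451 in the same order, and -0.420 to -0.261 leaving out single libraries. All of these alpha values except some with a library left out were short of the threshold. Gamma constant part minus windows was -1.02 with the shorter window. Alpha minus beta passed with no margin (0.0763), and ranged from 0.0430 to 0.0738 leaving out single libraries, passing without cKO cocaine replicate 1. With equal numbers, several differences that kept their call shrank, to -0.198 (alpha minus the rest of the genome), -0.225 (beta minus the rest of the genome), 0.210 (gamma minus alpha), 0.237 (gamma minus beta) and 0.712 (gamma windows minus remainder), and gamma minus the rest of the genome was 0.0119. Gamma minus the rest of the genome passed without both cKO replicates numbered 1 (0.136), and ranged from 0.0863 to 0.153 leaving out single libraries.

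Members with an element numbered 2 in each WT group and 1 in each cKO group. They numbered 0 in all 4 groups at q at most 0.01, and with equal numbers 1 in each WT group and 0 in each cKO group. They numbered 1, 0 and 0 in WT cocaine, WT saline and cKO saline when every replicate was required. WT saline had 0 with the shorter window. cKO saline had 0 at q at most 0.05 and without both cKO replicates numbered 1, and 2 with a window of 5 kb before to 2 kb after the start, where WT cocaine had 3, WT saline 2 and cKO cocaine 1. Leaving out single libraries gave 1 to 2 in WT cocaine, 0 to 2 in WT saline and 0 to 1 in cKO saline. Members in every WT cocaine and no cKO cocaine library numbered 0 at either q limit and with equal numbers, 2 with the 5 kb window, and 1 to 2 leaving out single libraries (2 without WT cocaine replicate 3). Members in every cKO cocaine and no cKO saline library numbered 1 without both cKO replicates numbered 1. Leaving out single libraries gave 0 to 1 for WT saline against cKO saline, cKO cocaine against WT cocaine and cKO saline against cKO cocaine. For these alternatives the shares of all protein-coding genes are not given, so the counts are not read as results about the members.

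For single genes (bp, tests added after values were seen), Pcdhac1 cKO cocaine minus WT cocaine was -87.3 at either q limit and with equal numbers. Pcdhgc3 WT cocaine minus WT saline was -7.0 and -74.0 at q at most 0.05 and 0.01. Pcdhac2 WT cocaine minus WT saline was -42.7 at q at most 0.01 and -180.0 with equal numbers, and Pcdhgc4 -122 with equal numbers. With the shorter window Pcdhgc3 was 8.33 for cKO saline minus WT saline and -3.0 for cKO cocaine minus WT cocaine. Leaving out single libraries gave -87.3 to 272 (Pcdhac1 cKO cocaine minus WT cocaine), -61.7 to 297 (Pcdhac1 cKO cocaine minus cKO saline), -111 to 117 (Pcdhac2 WT cocaine minus WT saline), -27.3 to 347 (Pcdhgc3 WT cocaine minus WT saline), -34.0 to 341 (Pcdhgc3 cKO cocaine minus WT cocaine), -253 to 218 (Pcdhgc3 cKO saline minus WT saline) and -49.7 to 177 (Pcdhgc5 cKO cocaine minus cKO saline).

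The labels link libraries of different groups only by replicate number, and whether it marks a batch is not known. For libraries of the same number, the correlation of deviations from the group means was 0.0485, -0.0196 and 0.0789 between the WT groups, 0.274, 0.00847 and 0.115 between the saline groups, 0.498 and 0.397 between the cKO groups and -0.0329 and -0.164 between the cocaine groups. For libraries of different number it was -0.167 to 0.116, -0.277 to 0.193, -0.498 to 0.361 and -0.136 to 0.164 in the same order. The deviations of the 2 cKO cocaine libraries mirror each other, so values with them are not independent. With the replicate number as a block, the gamma difference was 0.230 points between the WT groups (exact p = 0.25, the smallest for 3 pairs) and 0.155 points between the cKO groups (exact p = 1). The exact test with the block cannot go below p = 0.25 with 3 pairs or 0.5 with 2, so no call could change, and no group comparison changed its sign.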
